A study of Mus musculus with 47 samples.

Results

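MTF2 was targeted for degradation for the whole course of neural differentiation in a mouse embryonic stem cell (ESC) line, and the polyadenylated RNA of the resulting neural progenitor cultures (NPC) was compared with that of cultures of the same line without auxin. The comparison holds 6 of the 47 libraries of the series, chosen by their column labels: 3 with auxin and 3 untreated. All lines were C57BL/6 and carried Tir1, the plant protein that links an auxin-inducible degron (AID) to the ubiquitin machinery when auxin is present. The line studied here was MTF2-AID. Auxin was indole-3-acetic acid at 50 µM for 5 days, during which cells received bFGF (10 ng/ml, 72 hours) and then SAG, a Hedgehog pathway agonist (500 nM, 48 hours). The other NPC groups used were the untagged Tir1 line (3 untreated, 3 auxin), AID-JARID2 (3 and 3) and SUZ12-AID (3 untreated, 2 auxin), grown the same way. Untreated ESC of the MTF2-AID line (3 libraries) served only for reference levels. Their labels give 0 µM auxin and 12 hours, with no bFGF or SAG. Titles in the MTF2-AID and AID-JARID2 NPC groups give day 0, but their source and treatment-length labels say NPC and 5 days, which is how they were grouped. The series names its replicates biological. Neither the protein left after auxin nor whether a line was 1 clone is given in the sources used here.

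Polycomb repressive complex 2 (PRC2) methylates lysine 27 of histone H3 and keeps many developmental genes silent. Its core, which includes SUZ12, EED and an EZH enzyme, joins alternative accessory subunits. MTF2, also called PCL2, belongs to the form named PRC2.1 and helps it to bind unmethylated CpG-rich DNA, and JARID2 belongs to the form named PRC2.2. In neural cells PRC2 is known to hold Hox genes and regulators of other lineages silent.

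Depth was 3.62 to 5.66 M reads in the untreated MTF2 NPC libraries and 3.49 to 4.93 M reads in those with auxin, against 3.24 to 8.71 M over the series, as recovered from the steps between low TPM values, a transcript abundance scaled to gene length and library size. The NPC label was checked against marker genes. The summed level of 8 neural progenitor markers was 4530 to 4850 TPM untreated and 4500 to 4790 TPM with auxin, where untreated ESC of this line had 638 to 659 TPM. Most of that sum is Vim, a filament gene that many other cells also make, at 3220 ± 110 TPM untreated and 3380 ± 115 TPM with auxin (SD, n = 3). Of the 8 markers, Hes5, Fabp7 and Pax6 fell, as described with their lists. The sum of 6 ventral progenitor markers was 1160 to 1270 TPM untreated and 984 to 1130 TPM with auxin, and 90.5 to 100 TPM in untreated ESC. The glial markers Gfap, Aqp4 and S100b summed to at most 1.48 TPM in these 6 libraries, with S100b at 0. In bulk RNA, fewer cells of a type and less RNA per cell cannot be told apart. Mtf2 RNA (chromosome 5, 108065674 to 108109004, GRCm38) read 20.4, 21.4 and 21.4 TPM untreated and 26.7, 21.6 and 24.8 TPM with auxin. Its change of 0.20 ± 0.08 (log2 ± SE) did not pass the test (adjusted p = 0.153 in limma), and since a degron acts on the protein, the transcript checks nothing about the loss.

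Auxin changed 1340 of 16469 tested genes (8.14%) in MTF2 NPC: 828 rose (5.03%) and 512 fell (3.11%). A change is the log2 difference of TPM + 0.5 in a limma fit to all 23 NPC libraries, and genes count as called where the p adjusted over all tested genes (Benjamini-Hochberg) was under 0.05. This scale understates the changes of low genes. Most changes were small: 179 calls reached 2-fold, 127 of them higher and 52 lower. The balance of rises and falls depended on scaling, since median-of-ratios factors, which move the median change over all genes from 0.03 to 0, gave 721 rises and 805 falls. The number of calls was 788 without untreated replicate 2, 874 without untreated replicate 3, 844 without auxin replicate 3 and 601 when only the 6 MTF2 libraries were fitted. The libraries of the 2 groups did not overlap at 2481 genes in the higher direction (15.1%) and 1584 in the lower (9.62%), 24.7% of the tested genes in all. In the untagged line the same auxin treatment gave 0 calls in limma (0%), with 1180 genes at an unadjusted p under 0.05.

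The largest rises were those of genes that were low in both conditions. Kdf1, a keratinocyte differentiation factor, read 0, 0 and 0.271 TPM untreated and 2.13, 1.51 and 1.81 TPM with auxin, from 1 and 18 reads over the groups. The ratio of its reads, corrected for depth, was 20 (exact 95% interval 3.15 to 832, counting error only), and its change was 2.00 ± 0.31 (adjusted p = 0.000329). Hba-x, an embryonic globin, and Rbakdn, a noncoding RNA, had no read in any untreated library and 6 reads each with auxin, at least 2.14-fold higher against a floor of 3 reads over the group. Either call was lost without auxin replicates 1 or 2 or untreated replicates 1, 2 or 3. Rspo1, a secreted enhancer of WNT signalling, had 2 reads untreated and 17 with auxin (ratio 9.43, interval 2.24 to 84.2). Edn1, which encodes the vasoactive peptide endothelin 1, read 2.19, 2.33 and 1.29 TPM untreated and 6.60, 6.61 and 6.91 TPM with auxin (1.59 ± 0.30, adjusted p = 0.00192). Its 3 auxin libraries lay close together and above every untreated one. Mafa, a transcription factor of pancreatic beta cells, read 2.602, 1.98 and 2.04 TPM untreated and 4.02, 10.8 and 10.3 TPM with auxin (1.60 ± 0.27, adjusted p = 0.000668), so that auxin replicate 1 lay well below the other auxin libraries and above all untreated ones. In untreated ESC of this line Mafa read 15.2, 18.8 and 15.1 TPM and Kdf1 6.06, 5.3 and 6.75 TPM. Rbakdn read 7.55, 14.9 and 12.8 TPM there, and Rspo1 2.2, 1.85 and 1.09 TPM. Hba-x read 0 TPM there in every library, and Edn1 0.641, 1.41 and 1.19 TPM. Whether residual stem cells take part in these rises was not tested.

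The largest falls held several genes of neural patterning and axon growth. Ndufa4l2, a hypoxia-responsive mitochondrial gene, read 3.54, 6.71 and 2.604 TPM untreated and 0.512, 0 and 0 TPM with auxin, from 23 reads and 1 read (ratio 20.7, interval 3.37 to 854, adjusted p = 3.23e-05). Robo3, a receptor that steers commissural axons, read 3.81, 3.92 and 3.88 TPM untreated and 0.897, 1.02 and 1.02 TPM with auxin (fell by 1.56 ± 0.19, adjusted p = 3.23e-05). Both groups of libraries were tight and far apart. Dbx1, a homeobox gene of intermediate spinal progenitors, read 4.96, 5.83 and 6.65 TPM untreated and 1.83, 2.07 and 0.712 TPM with auxin (fell by 1.70 ± 0.39, adjusted p = 0.0105), and its call was lost without auxin replicate 3 (adjusted p = 0.0636). Slc32a1, the vesicular transporter of inhibitory neurons, fell from 4.31 to 5.32 TPM to 0.877 to 1.84 TPM, a call lost with a pseudocount of 0.1 (adjusted p = 0.0909). Moxd1, a monooxygenase-like gene, was the most abundant of the 15 largest falls and read 24.8, 29.6 and 27.8 TPM untreated and 9.86, 8.37 and 12.0 TPM with auxin (fell by 1.41 ± 0.14, adjusted p = 4.28e-06). Prdm8, a regulator of neuronal development, fell from 8.16 to 9.93 TPM to 2.06 to 4.24 TPM, and Tbx2, a T-box repressor, from 9.07 to 10.99 TPM to 2.49 to 5.33 TPM.

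**Figure D1:**
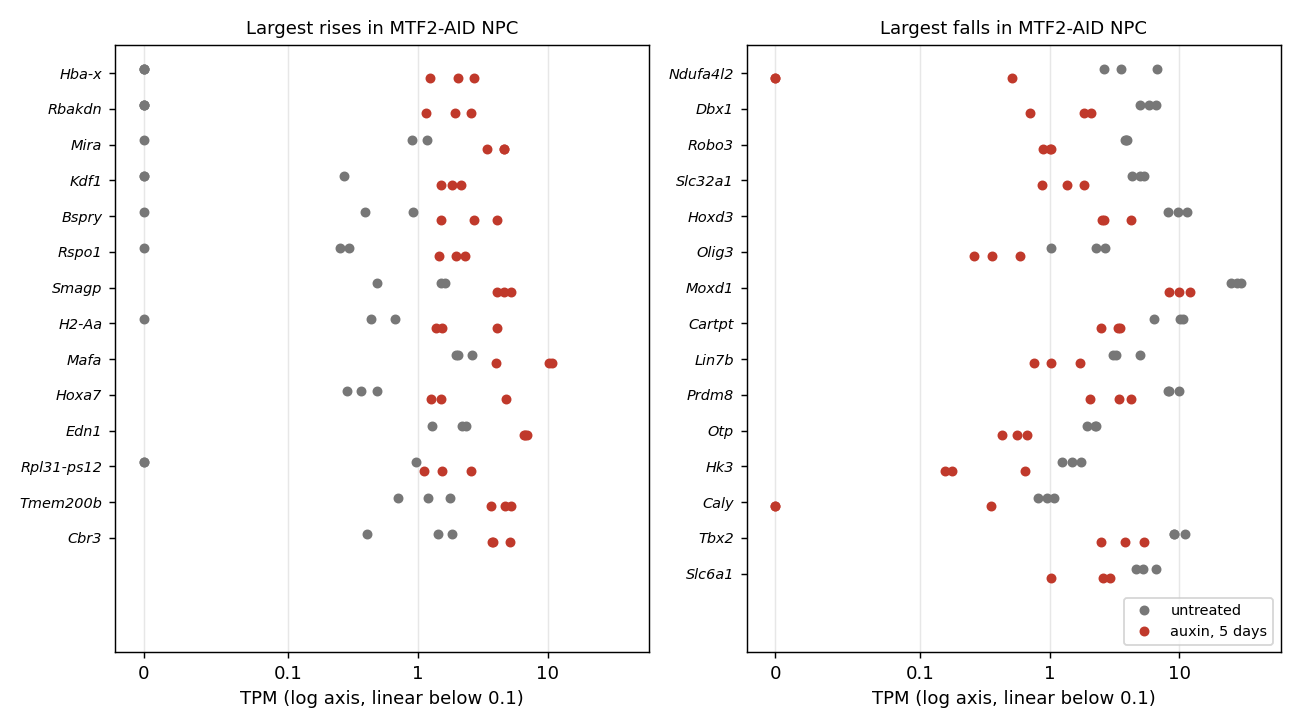
TPM in each of the 6 MTF2 NPC libraries for 14 of the 15 largest rises and for the 15 largest falls among called genes whose libraries did not overlap; each point is 1 library, untreated or with auxin as the legend shows. Most rises start near 0 TPM, as Hba-x does at 0 in all untreated libraries, while Moxd1 among the falls starts at 24.8 to 29.6 TPM.

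Genes of the Polycomb complexes themselves moved little. Of 6 PRC2 core genes 2 rose and 0 fell. Eed, a core subunit, read 49.4, 47.5 and 48.1 TPM untreated and 58.5, 53.8 and 61.1 TPM with auxin (0.26 ± 0.06, adjusted p = 0.0155), and Rbbp7, a histone-binding subunit, rose by 0.18 ± 0.05 (adjusted p = 0.0179). The Eed call was lost without auxin replicates 1 or 3 or untreated replicate 2, and the Rbbp7 call without auxin replicates 1 or 3 or untreated replicate 1 and under median-of-ratios scaling. Neither passed in voom or in a fit to the compared groups alone. Suz12, Ezh2 and Ezh1 had changes of 0.17, 0.11 and -0.08 that did not pass (adjusted p = 0.344, 0.275 and 0.571 in limma). Of 7 accessory genes 1 rose: Epop, listed as E130012A19Rik, whose protein joins the MTF2-containing form, read 121, 109 and 132 TPM untreated and 179, 168 and 148 TPM with auxin (0.45 ± 0.10, adjusted p = 0.00813). Its call was lost without untreated replicate 2. The MTF2 relatives Phf1 and Phf19 had changes of -0.12 and 0.08, and Jarid2 and Aebp2 of -0.08 and -0.04, none of which passed. Of 24 genes of the partner complex PRC1, 1 rose and 1 fell: Bmi1 rose by 0.36 ± 0.09 and Phc2 fell by 0.21 ± 0.07. The Phc2 call was lost without any 1 of the 6 libraries, and the Bmi1 call without auxin replicates 1 or 3 or untreated replicates 2 or 3, and neither passed in a fit to the compared groups alone.

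Hox genes, which set position along the body axis and are classical Polycomb targets, changed at few members and in both directions. Of 8 genes of paralogs 1 to 3, 0 rose and 3 fell, with a median change of -0.42. Hoxd3 read 9.68, 11.5 and 8.18 TPM untreated and 2.62, 4.24 and 2.55 TPM with auxin (fell by 1.52 ± 0.22, adjusted p = 0.000203). Hoxb2 fell from 96.9 to 114 TPM to 78.1 to 86.0 TPM, and Hoxb3 from 21.6 to 25.4 TPM to 15.04 to 17.6 TPM, a call lost without auxin replicate 3 or untreated replicate 2. Of 31 genes of paralogs 4 to 13 in the table, 21 passed the filter on low values, of which 2 rose and 2 fell. Hoxa7 read 0.480, 0.365 and 0.283 TPM untreated and 4.73, 1.26 and 1.51 TPM with auxin, from 4 and 25 reads (1.60 ± 0.37, adjusted p = 0.00884). Auxin replicate 1 was its highest library, and the call was lost without it (adjusted p = 0.0617). Hoxd9 read 0.892, 0.339 and 0 TPM untreated and 2.33, 1.17 and 2.46 TPM with auxin, from 5 and 20 reads (1.53 ± 0.32, adjusted p = 0.00419). In a fit to the 6 MTF2 libraries alone neither Hoxa7 nor Hoxd9 passed (adjusted p = 0.0841 and 0.0988). Hoxd4 fell from 11 to 12.6 TPM to 6.00 to 6.93 TPM (adjusted p = 0.00487), and Hoxb5 by 0.93 ± 0.26, a call lost without auxin replicates 2 or 3 or untreated replicates 1, 2 or 3. Over all tested genes 23.9% rose and 33.0% fell in SUZ12 NPC, and 9.28% and 15.7% in JARID2 NPC. Of the 21 tested genes of paralogs 4 to 13, 16 rose and 2 fell in SUZ12 NPC, with a median of 2.29. In JARID2 NPC 2 rose and 5 fell. Hoxb9 and Hoxb13, named here because they rose most with SUZ12 loss on that list (4.64 and 4.63), had changes of 0.76 and 0.36 with MTF2 loss that did not pass (adjusted p = 0.108 and 0.712).

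**Figure D2:**
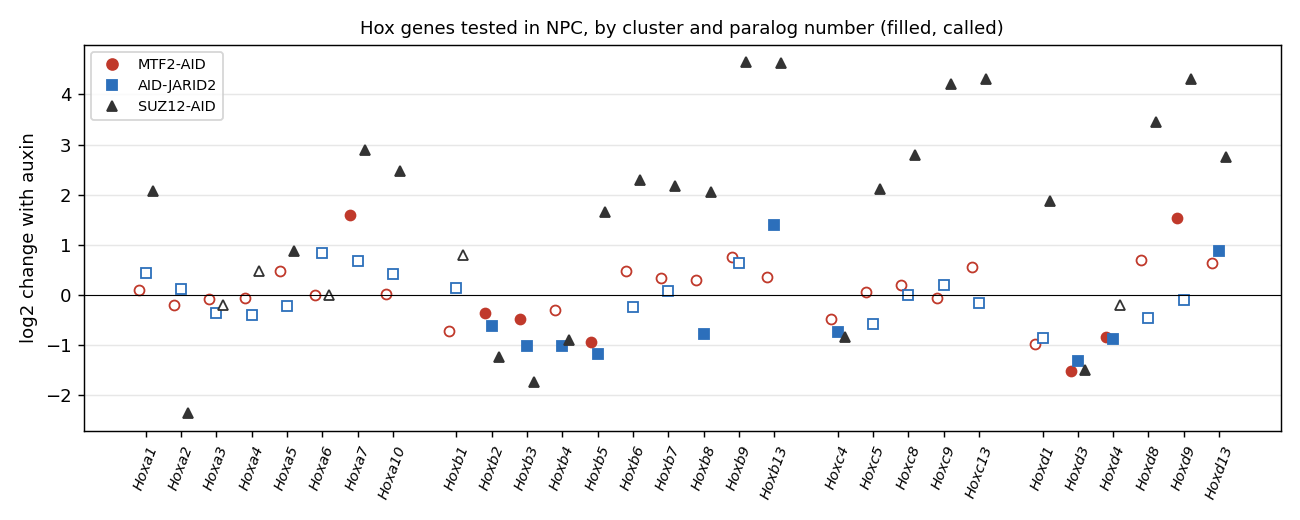
Log2 change with auxin of the 29 tested Hox genes, by cluster and paralog number, in MTF2-AID, AID-JARID2 and SUZ12-AID NPC; filled symbols passed the test in that line. The MTF2 values lie between -1.52 (Hoxd3) and 1.60 (Hoxa7), while Hoxb9 and Hoxb13 lie above 4 in the SUZ12 line.

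Sequences upstream of the RefSeq start are shown for Hoxa7, Hoxd9 and Barx1, rising Polycomb targets, and for Hoxd3, a falling one, because CpG content is the property that PRC2.1 is known to read. They come from RefSeq promoter entries (GRCm38.p6), run 5′ to 3′ toward the gene and leave out bases annotated as exon by GENCODE; CG is in capitals. They lie at chr6:52218712-52218823 (minus strand), chr2:74697587-74697726 (plus strand), chr13:48662786-48662997 (plus strand) and chr2:74711743-74711926 (plus strand), in that order. The Hoxa7 stretch lies within the span of its GENCODE gene model, outside exons.
Hoxa7: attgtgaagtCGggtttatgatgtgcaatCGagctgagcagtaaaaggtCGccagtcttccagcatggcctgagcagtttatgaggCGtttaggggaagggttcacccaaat
Hoxd9: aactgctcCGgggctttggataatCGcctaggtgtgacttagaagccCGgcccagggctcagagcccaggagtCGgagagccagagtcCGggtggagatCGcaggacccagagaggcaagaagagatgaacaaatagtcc
Barx1: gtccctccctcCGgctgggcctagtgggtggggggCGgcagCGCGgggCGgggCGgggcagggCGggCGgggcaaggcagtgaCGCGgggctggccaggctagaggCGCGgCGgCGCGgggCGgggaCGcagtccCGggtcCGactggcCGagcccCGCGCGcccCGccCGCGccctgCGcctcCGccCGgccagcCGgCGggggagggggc
Hoxd3: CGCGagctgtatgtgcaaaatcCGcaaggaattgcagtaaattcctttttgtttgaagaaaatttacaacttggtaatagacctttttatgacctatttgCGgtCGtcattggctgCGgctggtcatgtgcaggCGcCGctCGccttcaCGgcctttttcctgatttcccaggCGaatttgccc
These stretches hold 4 CG in 112 bases (Hoxa7), 6 CG in 140 bases (Hoxd9), 31 CG in 212 bases (Barx1) and 11 CG in 184 bases (Hoxd3). Barx1 has the most. The stretches differ in length, and the full windows of 300 bases hold 9 CG (Hoxa7), 20 (Hoxd9), 50 (Barx1) and 20 (Hoxd3). For scale, CG, which reads the same on both strands, occurs in 94.2% of all 27025 RefSeq promoter windows of 300 bases. A comparison of CG counts over gene sets was void, since only 71.3% of the tested genes have an entry.

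Of 120 regulators of other lineages listed as Polycomb targets, 96 were tested, of which 21 rose and 8 fell. Barx1, a homeobox gene of the stomach and jaw mesenchyme, read 7.23, 3.66 and 8.11 TPM untreated and 17.6, 21.7 and 15.2 TPM with auxin (1.502 ± 0.25, adjusted p = 0.000778). Its 3 auxin libraries all lay above the untreated ones. Foxf1, a factor of visceral mesoderm, rose from 3.82 to 5.69 TPM to 8.84 to 9.85 TPM (0.85 ± 0.17, adjusted p = 0.00265). Otp, a homeobox gene of hypothalamic and spinal neurons, fell from 1.94 to 2.26 TPM to 0.432 to 0.672 TPM (by 1.33 ± 0.21, adjusted p = 0.000509). The rises on this list numbered 12 without auxin replicate 1, 7 without auxin replicate 2, 11 without untreated replicate 1 and 10 without untreated replicate 2, and 8 in a fit to the compared groups alone. The falls numbered 5 without auxin replicate 2, 5 without auxin replicate 3, 4 without untreated replicate 1, 4 without untreated replicate 2 and 5 without untreated replicate 3, and median-of-ratios scaling gave 18 rises and 12 falls. In SUZ12 NPC 54 rose and 26 fell of the 96, and in JARID2 NPC 13 rose and 25 fell. Over all tested genes 23.9% rose and 33.0% fell in SUZ12 NPC, and 9.28% and 15.7% in JARID2 NPC. The SUZ12 falls on this list were thus no larger a share than over all genes.

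Of 15 Hedgehog pathway genes 2 rose and 0 fell, although 3 fell under median-of-ratios scaling. Shh, the ligand made by floor plate cells (chromosome 5, 28456815 to 28467256), read 117, 120.2 and 133 TPM untreated and 173, 171 and 153 TPM with auxin (0.42 ± 0.08, adjusted p = 0.00158). Cdon, a co-receptor, rose from 5.42 to 6.82 TPM to 7.97 to 8.93 TPM, a call lost without untreated replicate 3 and in a fit to the compared groups alone. The pathway targets Gli1 and Ptch1, used as markers, had changes of -0.25 and -0.04 that did not pass (adjusted p = 0.105 and 0.766). Of 17 ventral progenitor factors 1 rose and 5 fell, with a median change of -0.19. Olig2, which marks motor neuron progenitors (chromosome 16, 91225457 to 91228677), read 46.9, 48.5 and 44.6 TPM untreated and 29.2, 28.8 and 27.3 TPM with auxin (fell by 0.71 ± 0.08, adjusted p = 1.26e-05). Untreated ESC of this line held more Olig2 than these cultures, 67.7 ± 6.24 TPM (SD, n = 3). Pax6, a progenitor factor of intermediate and dorsal domains, read 25.7, 22.1 and 19.5 TPM untreated and 13.4, 15.1 and 15.1 TPM with auxin (fell by 0.60 ± 0.11, adjusted p = 0.00208). Both genes were lower in every auxin library. Sulf1, a sulfatase that shapes the Hedgehog response, rose from 115 to 120.2 TPM to 154 to 159.6 TPM (0.42 ± 0.05, adjusted p = 4.63e-05). The floor plate and most ventral factors Foxa2 and Nkx2-2, also markers, had changes of 0.21 and 0.04 that did not pass (adjusted p = 0.0658 and 0.839). The ventral falls numbered 3 without auxin replicate 1, 2 without auxin replicate 3, 3 without untreated replicate 2 and 3 without untreated replicate 3.

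Of 15 dorsal neural tube factors 4 rose and 1 fell. Zic2, a zinc finger gene of the roof plate and epiblast, rose from 4.89 to 5.76 TPM to 10.96 to 13.2 TPM (1.08 ± 0.18, adjusted p = 0.000643). The roof plate ligands Bmp4 and Bmp7 rose from 2.05 to 2.90 TPM to 5.22 to 7.25 TPM and from 48.2 to 51.9 TPM to 61.2 to 66.5 TPM. The fall was that of Olig3, a dorsal progenitor factor, with 23 reads untreated and 4 with auxin (fell by 1.41 ± 0.29, adjusted p = 0.00466), a call lost in a fit to the compared groups alone (adjusted p = 0.0723).

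Neurogenic genes fell in larger numbers. Of 23 proneural and Notch genes 11 fell and 1 rose, with a median change of -0.32, and 9 to 11 fell with 1 library left out. The rise did not pass without auxin replicates 1 or 2 or any 1 untreated library, with no filter, under median-of-ratios scaling or in a fit to the compared groups alone. Hes5, a Notch target that holds progenitors back from becoming neurons (chromosome 4, 154960923 to 154962371), read 130.1, 129.7 and 127 TPM untreated and 66.5, 66.8 and 57.4 TPM with auxin (fell by 1.02 ± 0.11, adjusted p = 1.16e-05). Neurog1, a proneural factor that starts neuron formation (chromosome 13, 56250478 to 56252163), read 39.8, 46.4 and 44.6 TPM untreated and 21.1, 22.4 and 22.99 TPM with auxin (fell by 0.96 ± 0.10, adjusted p = 4.28e-06). Neither gene's groups came near each other. Mfng, a glycosyltransferase that modifies Notch receptors, fell from 95.7 to 102 TPM to 76.2 to 81.7 TPM, and Nrarp, a Notch feedback gene, from 159.8 to 178 TPM to 109 to 121 TPM. Of 25 neural progenitor markers 6 fell and 1 rose, the rise being Hes1, a Notch target named after its value was seen. No marker of the list passed as a rise with any 1 of the 6 libraries left out, with no filter, under median-of-ratios scaling, in voom or in a fit to the compared groups alone. Fabp7, a lipid carrier of radial glia, read 204, 216 and 221 TPM untreated and 129.6, 122 and 143 TPM with auxin (fell by 0.70 ± 0.11, adjusted p = 0.000532), and Sox9, a gliogenic factor, fell from 33.1 to 37.4 TPM to 24.2 to 27.0 TPM. Sox2, a general progenitor factor and marker, had a change of -0.01 (adjusted p = 0.983).

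Of 14 motor neuron factors 9 fell and 0 rose, with a median change of -0.48. Isl1, a LIM homeobox gene of motor neurons, read 124, 128 and 131 TPM untreated and 92.0, 87.5 and 92.0 TPM with auxin (fell by 0.49 ± 0.06, adjusted p = 4.51e-05). Slc18a3, the vesicular acetylcholine transporter, fell from 86.1 to 94.3 TPM to 52.7 to 58.6 TPM, and Lhx4, another LIM homeobox gene, from 24.6 to 27.9 TPM to 13.5 to 15.9 TPM. Mnx1, used as a motor neuron marker, read 9.66 ± 2.70 TPM untreated and 15.2 ± 3.96 TPM with auxin (SD, n = 3). Its change of 0.63 did not pass (adjusted p = 0.0787 in limma). With 1 library left out 7 to 9 of the motor neuron list fell, and 1 rose without auxin replicate 1 or untreated replicate 2. Of 16 interneuron factors 8 fell and 2 rose, with a median of -0.50. Tal1, a factor of V2b interneurons, read 11.7, 12.3 and 12.9 TPM untreated and 5.31, 6.01 and 5.32 TPM with auxin (fell by 1.08 ± 0.17, adjusted p = 0.000452), and Foxn4, which acts in the precursors of that lineage, fell from 7.19 to 9.05 TPM to 2.97 to 4.62 TPM. The interneuron falls numbered 5 without auxin replicate 1, 5 without auxin replicate 2, 5 without untreated replicate 1 and 4 without untreated replicate 2, and 3 in a fit to the compared groups alone. The interneuron rises numbered 0 without untreated replicate 2 and in that fit, and 1 without auxin replicates 1 or 2 or untreated replicate 3.

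Of 41 general neuron genes 27 fell and 1 rose, with a median change of -0.47, and 22 to 25 fell with 1 library left out. Gap43, a growth cone protein, read 257, 249 and 253 TPM untreated and 187, 176 and 185 TPM with auxin (fell by 0.47 ± 0.05, adjusted p = 6.38e-06). Ina, a neuronal intermediate filament, fell from 337 to 365 TPM to 232 to 248 TPM, and Dpysl3, which acts in axon growth, from 134 to 143 TPM to 92.4 to 99.8 TPM. In the untagged line the same list had a median change of -0.21 with auxin, and none of its genes passed there. The summed level of 6 neuron markers was 2620 to 2710 TPM untreated and 1920 to 1960 TPM with auxin in MTF2 NPC, against 2630 to 2880 and 2360 to 2520 TPM in untagged NPC. When the untagged effect was subtracted, 1 of the 41 neuron genes passed, Robo3, and the median was -0.26. In the same test 0 of the 14 motor neuron factors passed, with a median of -0.25. Of 31 axon guidance genes 9 fell and 2 rose. Robo1, a Slit receptor, fell from 17.0 to 18.9 TPM to 10.6 to 13.4 TPM, while Sema3c and Cxcl12, both secreted cues, rose from 6.75 to 8.41 TPM to 12.2 to 15.2 TPM and from 18.0 to 22.1 TPM to 29.4 to 32.4 TPM. The guidance falls numbered 5 without auxin replicate 3, 5 without untreated replicate 1, 5 without untreated replicate 2 and 5 without untreated replicate 3.

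**Figure D3:**
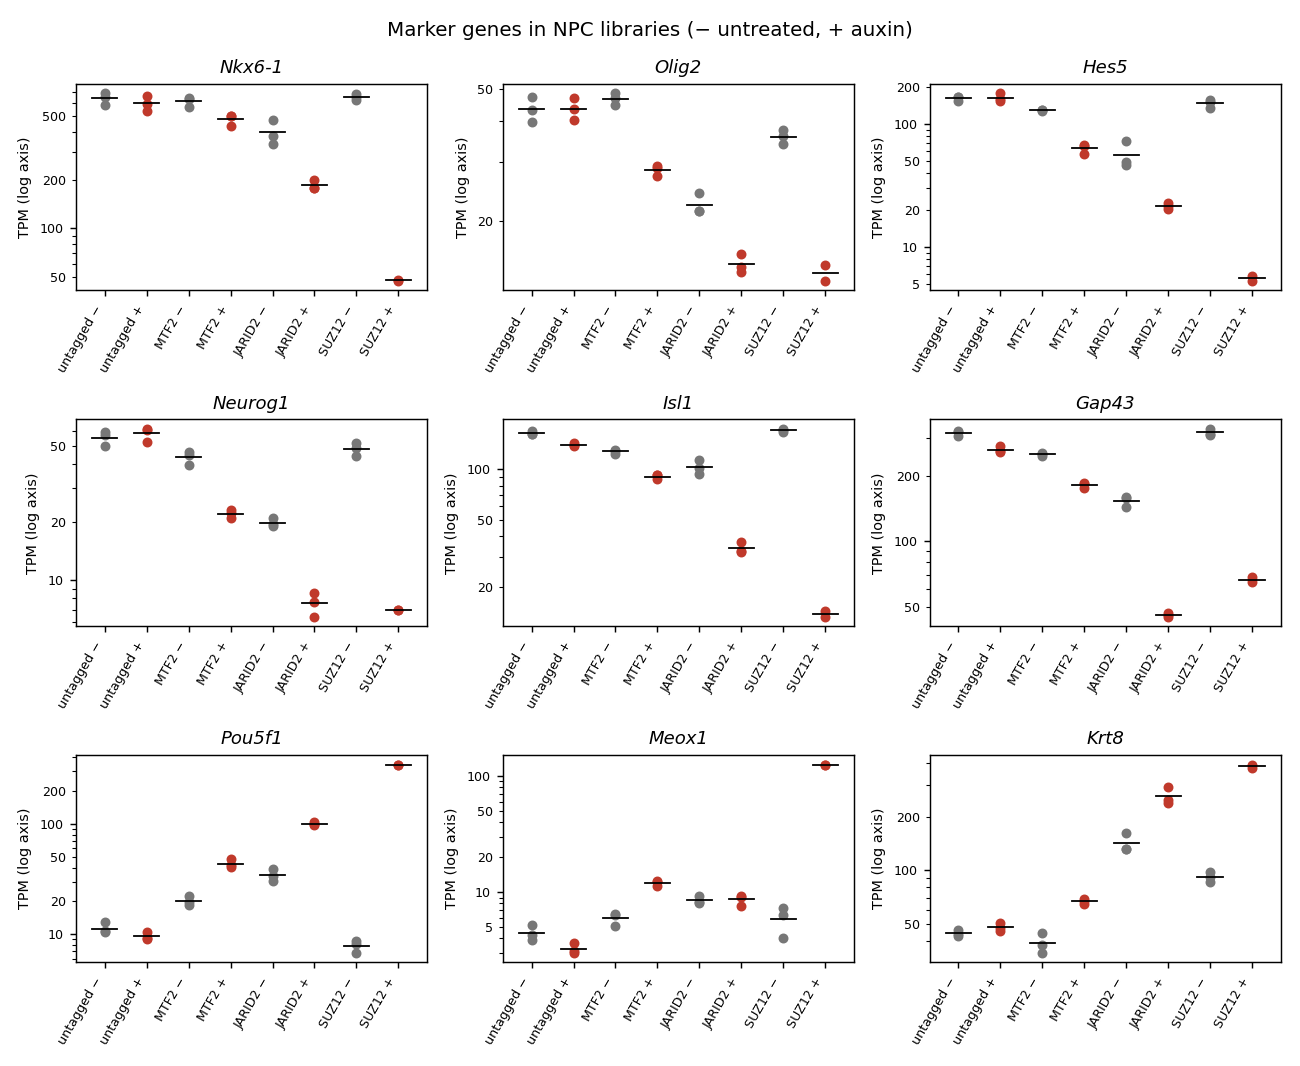
TPM on a log axis for 9 marker genes in every library of the 8 NPC groups; points are libraries and lines are group means, with 2 libraries for SUZ12 with auxin. In the MTF2 line Nkx6-1, Olig2, Hes5, Neurog1, Isl1 and Gap43 are lower in all auxin libraries than in all untreated ones, and Pou5f1, Meox1 and Krt8 are higher.

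Genes of the pluripotent state were higher with auxin in part. Of 15 general pluripotency factors 6 rose and 0 fell, of 20 naive factors 6 and 0, and of 16 formative and primed factors 6 and 0. Under median-of-ratios scaling 1 naive and 1 formative factor fell. The median changes were 0.37, 0.44 and 0.46. Pou5f1, which encodes OCT4 (chromosome 17, 35506018 to 35510772), read 19.5, 22.2 and 18.4 TPM untreated and 47.8, 42.2 and 41.0 TPM with auxin (1.11 ± 0.10, adjusted p = 2.9e-06). Its level in untreated ESC of the same line was 2005 ± 33.3 TPM (SD, n = 3). Utf1, a chromatin factor of stem cells, rose from 11.3 to 16.2 TPM to 29.3 to 33.9 TPM, Klf2, a naive factor, from 8.51 to 9.02 TPM to 15.1 to 17.9 TPM, and Lin28a, an RNA-binding protein that is also made by early neural cells, from 125 to 129.7 TPM to 159 to 168 TPM. Nanog, a core factor of the naive state, had a change of 0.40 that did not pass (adjusted p = 0.263). Nodal, a ligand of the epiblast, rose from 1.02 to 1.34 TPM to 3.18 to 4.11 TPM, and Dnmt3b, a de novo DNA methyltransferase, from 16.4 to 19.1 TPM to 25.2 to 29.1 TPM (0.61 ± 0.10, adjusted p = 0.000361). The sum of 6 stem cell markers was 59.7 to 74.4 TPM untreated and 109 to 126 TPM with auxin, against 5730 to 5960 TPM in untreated ESC of this line. In untagged NPC it was 38.8 to 51.6 and 35.2 to 48.5 TPM. The untreated degron lines differed in this sum, with 99.5 to 133 TPM in JARID2 NPC and 26.3 to 31.4 TPM in SUZ12 NPC. The MTF2 sum with auxin thus lay within the range of untreated JARID2 NPC. Whether residual stem cells take part in these rises was not tested. The naive rises numbered 2 without auxin replicate 1, 2 without auxin replicate 2 and 2 without untreated replicate 3, and 1 in a fit to the compared groups alone.

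Non-neural lineage factors rose and did not fall among the calls on 3 lists, which share some genes. Of 22 mesoderm factors 9 rose, of 17 endoderm factors 10, and of 13 trophectoderm factors 6. Their median changes were 0.48, 0.78 and 0.41. Meox1, a somite homeobox gene, read 6.36, 5.16 and 6.50 TPM untreated and 12.5, 12.2 and 11.4 TPM with auxin (0.95 ± 0.15, adjusted p = 0.000581). Foxc2, a mesenchymal forkhead factor, rose from 6.01 to 9.52 TPM to 10.6 to 16.7 TPM, a call lost in a fit to the compared groups alone (adjusted p = 0.0576), and Dab2, an endocytic adaptor of extraembryonic endoderm, from 12.3 to 18.3 TPM to 25.3 to 30.6 TPM. Tead4, a transcription factor of trophectoderm, read 5.63, 6.02 and 5.92 TPM untreated and 14.1, 13.2 and 11.1 TPM with auxin (1.06 ± 0.12, adjusted p = 1.16e-05). The simple-epithelium keratins Krt8 and Krt18 rose from 34.3 to 44.2 TPM to 64.3 to 69.1 TPM and from 47.7 to 54.2 TPM to 91.5 to 97.9 TPM. Untreated NPC held Krt8 at 132 to 162 TPM in the JARID2 line and at 85.3 to 97.5 TPM in the SUZ12 line. In untreated untagged NPC Krt8 was at 42.7 to 45.8 TPM. The mesoderm rises numbered 5 without auxin replicate 1, 4 without auxin replicate 2, 4 without untreated replicate 1 and 5 without untreated replicate 2, while 7 to 9 endoderm and 5 to 6 trophectoderm factors rose with 1 library left out. The mesoderm falls numbered 1 without auxin replicate 3 and 1 without untreated replicate 1. The summed level of 6 mesoderm markers was 54.8 to 65.6 TPM untreated and 78.3 to 89.3 TPM with auxin, mostly Twist1. That of 6 endoderm markers was 43.1 to 48.2 and 54.7 to 68.6 TPM, mostly Foxa1, a gene also made by floor plate. That of 4 trophectoderm markers was 17.3 to 22.2 and 26.9 to 30.3 TPM, against 28.6 to 30.4 TPM in untreated untagged NPC. There the mesoderm and endoderm sums were 35.8 to 39.4 and 26.2 to 27.7 TPM. Of the mesoderm markers Twist1, Meox1 and Col1a1 passed as rises. Tbx6 read 1.95 ± 0.748 TPM untreated and 0.67 ± 0.648 TPM with auxin (SD, n = 3). Its change of -1.20 did not pass (adjusted p = 0.0675 in limma). Of the trophectoderm markers only Krt7 passed, from 11.1 ± 2.91 to 20.8 ± 1.45 TPM (SD, n = 3). Cdx2 and Gata3 had changes of -0.004 and -0.04 that did not pass. The sum of 5 neural crest markers was 2.93 to 4.69 and 4.28 to 6.30 TPM. Mesp1 and Afp were at 0 in the untreated libraries and Elf5 in those with auxin. The part of cells of these types in the rises was not tested. Of 15 neural crest factors 1 rose and 1 fell. Ngfr, a neurotrophin receptor that ventral neural cells also make, read 95.2, 100.2 and 92.0 TPM untreated and 55.1, 48.7 and 57.5 TPM with auxin (fell by 0.83 ± 0.09, adjusted p = 8.09e-06), and Twist1, a mesenchymal factor, rose from 35.6 to 46.1 TPM to 49.9 to 58.5 TPM, a call lost without auxin replicates 2 or 3 or untreated replicates 1 or 2.

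**Figure D4:**
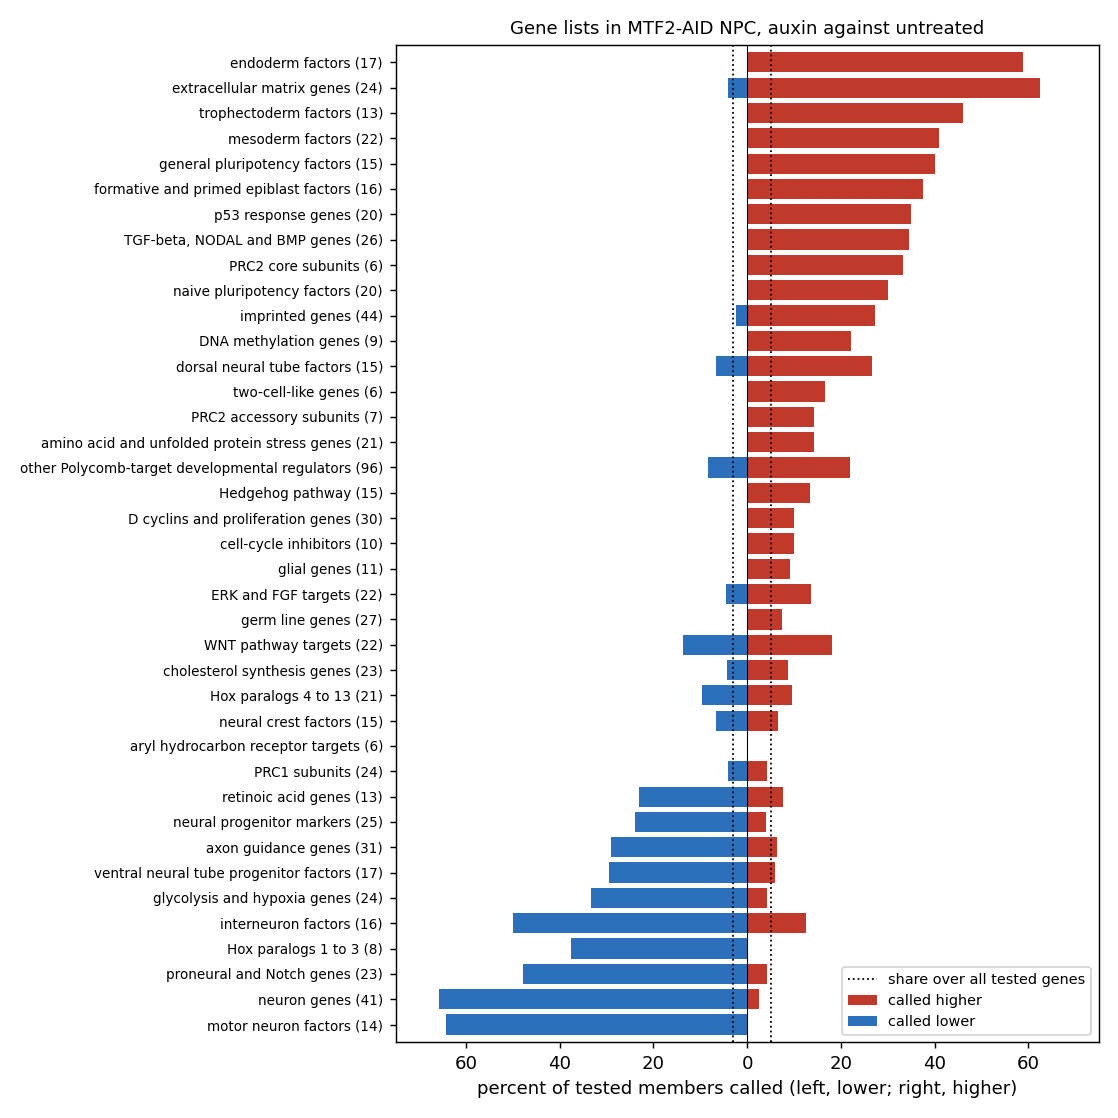
Percent of the tested members of each of the 39 gene lists that rose or fell with auxin in MTF2 NPC; dotted lines mark 5.03% and 3.11%, the shares over all tested genes. The imprinted list is drawn with 44 entries for its 43 genes. Neuron genes (27 of 41) and motor neuron factors (9 of 14) stand far past the line for falls, and extracellular matrix genes (15 of 24) and endoderm factors (10 of 17) past that for rises.

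Of 24 extracellular matrix genes 15 rose and 1 fell, with a median change of 0.35, and 10 to 14 rose with 1 library left out. Lamb1, a laminin chain of the basement membrane, read 41.3, 41.7 and 37.0 TPM untreated and 69.9, 70.9 and 62.5 TPM with auxin (0.75 ± 0.10, adjusted p = 5.56e-05). The matricellular genes Ctgf and Cyr61, known as targets of YAP, rose from 40.7 to 45.0 TPM to 72.3 to 80.3 TPM and from 50.2 to 53.1 TPM to 88.6 to 104 TPM. Thbs1, thrombospondin 1, rose by 0.86 ± 0.09 in MTF2 NPC and had a change of 0.48 in the untagged line that did not pass. Of 26 genes of TGF-beta, NODAL and BMP signalling 9 rose and 0 fell. Fst, an activin antagonist, rose from 1.74 to 3.47 TPM to 4.91 to 9.29 TPM.

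Of 43 imprinted genes 12 rose and 1 fell, although the median change was 0.12, and 8 to 10 rose with 1 library left out. Slc38a4, an amino acid transporter expressed from the paternal allele (chromosome 15, 96994820 to 97055956), read 32.2, 30.9 and 30.7 TPM untreated and 56.6, 57.3 and 58.0 TPM with auxin (0.86 ± 0.07, adjusted p = 2.66e-07). Its 6 libraries fell into 2 narrow bands. H19, a maternally expressed noncoding RNA, rose from 158 to 172 TPM to 243 to 254 TPM (adjusted p = 3.99e-06), and Peg3, a paternally expressed zinc finger gene, from 138 to 156 TPM to 209 to 237 TPM (adjusted p = 2.49e-05). Nnat, a paternally expressed membrane protein, fell from 1241 to 1261 TPM to 1028 to 1050 TPM. The values do not separate the alleles.

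Of 24 glycolysis and hypoxia genes 8 fell and 1 rose, with a median change of -0.22 beside 0.09 in the untagged line. Ldha, lactate dehydrogenase A (chromosome 7, 46841475 to 46855627), read 469.8, 517 and 466 TPM untreated and 277, 289.8 and 292 TPM with auxin (fell by 0.76 ± 0.11, adjusted p = 0.000347). Untreated untagged NPC held 1029 ± 41.3 TPM of it, against 484 ± 28.7 TPM in untreated MTF2 NPC (SD, n = 3). Slc2a1, the basal glucose transporter, fell from 443 to 484 TPM to 354 to 372 TPM, and Pfkl, a phosphofructokinase, from 81.1 to 94.2 TPM to 63.8 to 66.8 TPM, while Slc2a3, the neuronal glucose transporter, rose from 37.4 to 49.5 TPM to 67.0 to 78.4 TPM. Of 13 retinoic acid genes 3 fell and 1 rose. Crabp2, which carries retinoic acid to its receptors, fell from 822 to 866 TPM to 630.1 to 715 TPM, the receptor genes Rara and Rarb by 0.31 and 0.67, and Rdh10, which makes retinal, rose from 18.0 to 23.6 TPM to 34.1 to 40.0 TPM. Of 22 WNT genes 4 rose and 3 fell. Notum, a secreted WNT inhibitor, rose from 6 to 31 reads, and Sfrp2, another WNT antagonist, fell from 151 to 175 TPM to 100.5 to 110.0 TPM. Of 20 p53 response genes 7 rose and 0 fell, among them Pmaip1, a pro-apoptotic gene, from 20.8 to 24.9 TPM to 35.4 to 38.2 TPM; the rises numbered 4 without auxin replicate 1 and 4 without untreated replicate 3.

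The untagged line shows how far auxin alone moved each gene. The MTF2 and untagged effects differed at 230 genes (1.4%), with the MTF2 effect above at 176 (1.07%) and below at 54 (0.328%), or at 138 and 100 under median-of-ratios scaling. Pou5f1 was one of them (difference 1.32 ± 0.15, adjusted p = 9.2e-05), as was Slc38a4 (0.89 ± 0.10, adjusted p = 7.18e-05). Hes5 held 162 ± 6.43 TPM untreated and 163 ± 13.2 TPM with auxin in untagged NPC (SD, n = 3), and its difference was -1.03 ± 0.16, adjusted p = 0.00228. Neurog1 differed by -1.03 ± 0.14, adjusted p = 0.000605, and Olig2 by -0.71 ± 0.11, adjusted p = 0.00263. Nbl1, a BMP antagonist, read 4.60, 3.33 and 5.43 TPM untreated and 10.9, 12.9 and 10.4 TPM with auxin in the MTF2 line, and 3.89 ± 1.04 and 2.40 ± 0.149 TPM (SD, n = 3) in the untagged line. Its difference was 1.86 ± 0.26, adjusted p = 0.0015. Isl1 and Gap43 did not pass this test (adjusted p = 0.15 and 0.133). The count was 138 without MTF2 auxin replicate 1, 134 and 145 without MTF2 untreated replicates 2 and 3, 126 without untagged untreated replicate 2 and 120 in a fit to the 4 groups alone.

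By list, the MTF2 effect was above the untagged one at 7 of 24 extracellular matrix genes and 4 of 22 mesoderm, 4 of 17 endoderm and 4 of 13 trophectoderm factors. The same held at 6 of 44 entries of the imprinted list, which stand for 43 genes. It was below at 4 of 23 proneural and Notch genes, which were Neurog1, Hes5, Mfng and Neurog2, the last named after its value was seen, and at 5 of 24 glycolysis and hypoxia genes. On the Hox lists it was below at Hoxb2 and Hoxd3 and above at none.

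The untreated cultures of the 2 lines were not alike. Untreated MTF2 NPC differed from untreated untagged NPC at 1443 genes (8.76%), 1020 higher (6.19%) and 423 lower (2.57%), or 822 and 663 under median-of-ratios scaling. The count was 917 and 760 without untagged untreated replicates 2 and 3 and 806 when only those 6 libraries were fitted. Pou5f1 was at 20.01 ± 1.97 TPM in MTF2 NPC against 11.2 ± 1.34 TPM in untagged NPC (SD, n = 3; difference 0.81 ± 0.10, adjusted p = 3.33e-05 in limma). Lamb1 was at 40.0 ± 2.62 against 12.7 ± 1.05 TPM (1.62 ± 0.10, adjusted p = 8.97e-10), and Isl1 at 128 ± 3.47 against 164 ± 3.64 TPM (-0.36 ± 0.06, adjusted p = 0.000864). The untreated MTF2 libraries enter both these differences and the auxin changes above.

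Loss of SUZ12, the core subunit, changed 9368 of the same 16469 genes (56.9%), 3931 higher (23.9%) and 5437 lower (33.0%), and loss of JARID2 changed 4116 (25.0%), 1528 higher (9.28%) and 2588 lower (15.7%). These lines have their own untreated controls. Median-of-ratios scaling moved the median change over all genes from -0.0984 to 0.0241 with SUZ12 loss. With JARID2 loss it moved that median from -0.0359 to 0.011. How far the counts of rises, falls and shared calls in these lines depend on scaling was not tested. Of the 828 genes that rose with MTF2 loss, 577 (69.7%) also rose with SUZ12 loss, which is 14.7% of its rises, and 79 fell. With JARID2 loss 329 (39.7%) rose, which is 21.5% of its rises, and 61 fell. Of the 512 that fell with MTF2 loss, 445 (86.9%) fell with SUZ12 loss, which is 8.18% of its falls, and 380 (74.2%) with JARID2 loss, which is 14.7% of its falls. Of these 512, 14 and 7 rose. Over the 828 rises the median change was 0.76 in SUZ12, 0.20 in JARID2 and 0.01 in untagged NPC, and over the 512 falls -1.42, -0.60 and -0.11.

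**Figure D5:**
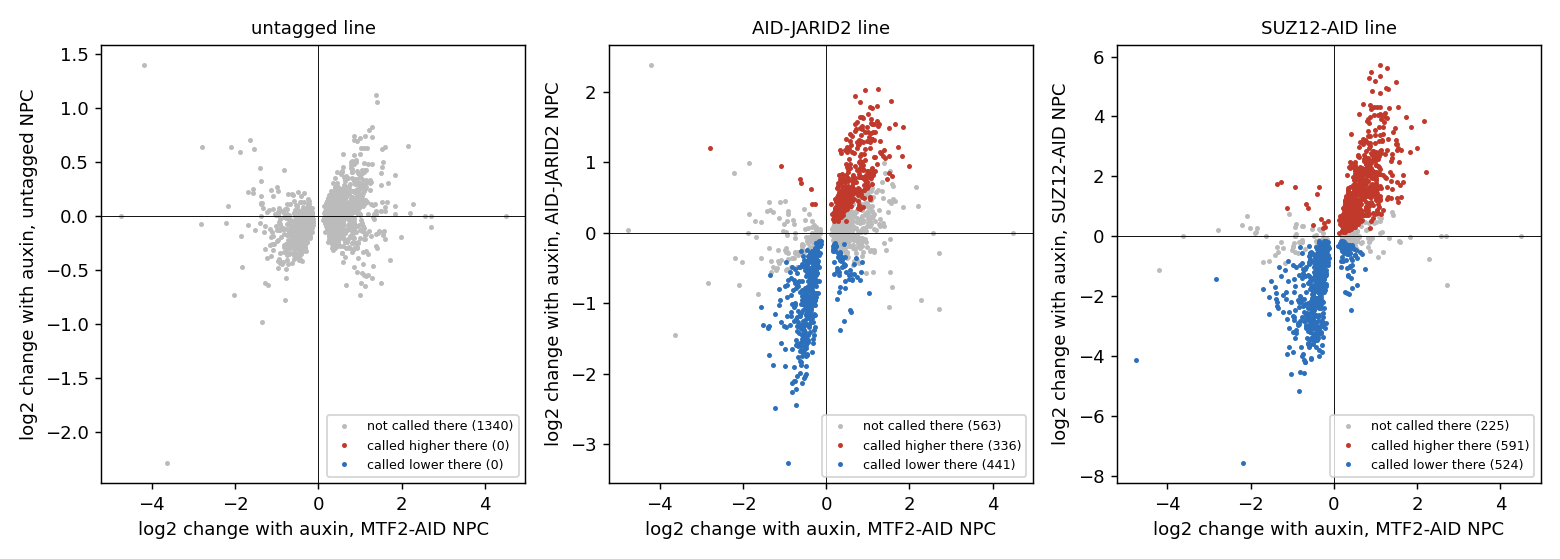
Log2 change with auxin of the 1340 genes called in MTF2 NPC (x axis) against the change of the same genes in untagged, AID-JARID2 and SUZ12-AID NPC (y axis), coloured by whether they passed the test in the other line. None passed in the untagged line, and 445 of the 512 falls passed as falls in the SUZ12 line.

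The MTF2 and SUZ12 effects differed at 7075 genes (43.0%), with the MTF2 effect above at 4483 (27.2%) and below at 2592 (15.7%). Median-of-ratios scaling, which moved the median difference from 0.136 to -0.0277, gave 3192 and 3772. Hes5 fell by 4.61 with SUZ12 loss and by 1.02 with MTF2 loss (difference 3.59 ± 0.17, adjusted p = 3.98e-13). Pou5f1 rose from 7.88 ± 0.954 TPM (SD, n = 3) to 341 ± 3.26 TPM (SD, n = 2) with SUZ12 loss, and its effects differed by -4.25 ± 0.16 (adjusted p = 7.39e-15). Shh moved in opposite directions, a rise with MTF2 loss and a fall from 86.0 ± 0.623 TPM (SD, n = 3) to 15.2 ± 1.75 TPM (SD, n = 2) with SUZ12 loss (difference 2.89 ± 0.12, adjusted p = 2.4e-14). Insm1, a factor of newborn neurons, fell by 4.20 with SUZ12 loss and had a change of -0.23 with MTF2 loss that did not pass (difference 3.97 ± 0.15, adjusted p = 8.82e-15).

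The MTF2 and JARID2 effects differed at 1588 genes (9.64%), with the MTF2 effect above at 1288 (7.82%) and below at 300 (1.82%), or at 916 and 613 under median-of-ratios scaling. A fit to those 4 groups alone gave 996. Isl1 fell by 1.60 with JARID2 loss and by 0.49 with MTF2 loss (difference 1.11 ± 0.09, adjusted p = 5.87e-08). For Hes5 and Neurog1 the difference was 0.31 ± 0.16 and 0.39 ± 0.14 and did not pass (adjusted p = 0.243 and 0.0761). Every untreated JARID2 library held less of both genes than any untreated MTF2 library. Neurog1 read at most 20.9 TPM in untreated JARID2 NPC, against at least 39.8 TPM in untreated MTF2 NPC and 21.1 TPM with auxin. The sum of 6 neuron markers was 1470 to 1720 TPM in untreated JARID2 NPC, below the 1920 to 1960 TPM of MTF2 NPC with auxin. Whether these starting levels shape the differences was not tested. Shh rose with MTF2 loss and fell by 1.26 with JARID2 loss (difference 1.68 ± 0.11, adjusted p = 3.42e-09). Pax6 fell with MTF2 loss and rose by 0.70 with JARID2 loss (difference -1.31 ± 0.16, adjusted p = 1.3e-05). Cxcl12 rose with MTF2 loss and fell by 1.13 with JARID2 loss (difference 1.73 ± 0.15, adjusted p = 1.37e-07), and Col3a1, a mesenchymal collagen, did likewise (difference 1.68 ± 0.15, adjusted p = 2.12e-07).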

How the data were processed

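Strand-specific libraries of polyadenylated RNA were sequenced. The authors deposited 1 table of TPM (transcript abundance scaled to gene length and library size) for 47 libraries. Reads were aligned to mm10 with STAR 2.6.1d, per the submitters' processing notes, and for the counting step no source used here names a tool. Whole reads were recovered from the steps between low TPM values, within a tolerance of 0.001 for 100% of genes. They served for depth, for counting intervals and for 1 alternative test.

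The 16469 genes that reached 1 TPM in 2 NPC libraries or more were tested on log2(TPM + 0.5), computed from the deposited TPM, with limma 3.58.1 (R 4.3.3; trended, robust variance). The fit held all 8 NPC groups, with no block. Differences between auxin effects are contrasts of that fit. Adjusted p-values are Benjamini-Hochberg over all tested genes, called under 0.05. The script was tested on simulated data.

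Named genes were the 15 largest rises and falls among called genes whose libraries did not overlap (without unnamed gene models, histone and small RNA genes), the 5 largest in each direction of each difference between lines, up to 4 called members with the smallest p of each of 39 lists, and 10 PRC2 genes. Members and lists were chosen with earlier results of these data known. Same-numbered replicates were checked for pairing, and correlations of their deviations were at most 0.0853. SUZ12 auxin libraries were numbered 1 and 2 as in their titles, while their library names carry 2 and 3; by name their correlations were 0.0326 and 0.0451.

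Alternatives were other pseudocounts, filters and scaling, voom, a replicate block, the compared groups alone and each library left out. TPM depend on the other transcripts of a library, so a change in abundant RNA shifts all values. Intervals and floors cover counting error only. Some named genes are not reported here.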

Additional observations from a re-analysis of the deposited data

Results flagged for a closer look

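Each of these results was flagged because the auxin effect in MTF2 NPC differed from that in another line by a direct test of the difference in limma; values are MTF2 minus the other line, log2 ± SE.

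Against the untagged line 230 genes differed. Of the 5 largest positive differences 4 are given, Kdf1 (2.19 ± 0.43), Arhgdib (2.13 ± 0.48), Nbl1 (1.86 ± 0.26) and Rbmxl2 (1.76 ± 0.32), with adjusted p from 0.0015 to 0.0295. The 5 largest negative ones were Ndufa4l2 (-2.75 ± 0.48), Robo3 (-1.81 ± 0.27), Olig3 (-1.86 ± 0.42), Prdm8 (-1.48 ± 0.26) and Rmrp (-1.45 ± 0.31), with adjusted p from 0.00228 to 0.0279. Rmrp, the RNA of a mitochondrial and nucleolar ribonuclease, did not pass in MTF2 NPC itself. All of these but Robo3, Prdm8, Nbl1, Rbmxl2 and Rmrp rest on at most 23 reads in each MTF2 group.

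Against SUZ12 loss 7075 genes differed. The largest positive differences were Scg2 (4.33 ± 0.24), Lrrn1 (4.21 ± 0.14), Nkx6-2 (4.05 ± 0.10), Insm1 (3.97 ± 0.15) and Zeb2os (3.93 ± 0.30), among them neuronal and ventral genes, and the largest negative ones Lgals7 (-5.78 ± 0.85), Rpl10l (-5.61 ± 0.59), Tdgf1 (-5.51 ± 0.41), Dppa3 (-5.44 ± 0.46) and Nanog (-5.39 ± 0.31), among them pluripotency genes. Adjusted p ran from 2.64e-17 to 1.33e-05. Genes that passed in both lines in opposite directions comprised 79 that rose and 14 that fell with MTF2 loss; those among the named genes were Hoxb5 (-2.58 ± 0.39), Shh (2.89 ± 0.12), Sulf1 (1.79 ± 0.08), Rarb (-1.75 ± 0.22), Idi1 (0.94 ± 0.16) and Cyp51 (0.97 ± 0.07), with adjusted p from 2.4e-14 to 6.23e-05 for the difference. The MTF2 calls of Hoxb5, Idi1 and Cyp51 were lost in 5 or more alternatives each.

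Against JARID2 loss 1588 genes differed. The largest positive differences were Hba-x (3.23 ± 0.85), Rpl31-ps12 (2.36 ± 0.61), Hbb-bh1 (2.86 ± 0.85), Cryba1 (2.64 ± 0.69) and Actg2 (2.57 ± 0.59), and the largest negative ones Cryga (-3.03 ± 0.72), Platr26 (-2.70 ± 0.67), Fgf5 (-2.57 ± 0.46), Gpha2 (-2.38 ± 0.69) and Hesx1 (-2.38 ± 0.68). Adjusted p ran from 0.000855 to 0.0381. All of these but Cryba1 and Actg2 rest on at most 6 reads in each MTF2 group. Only Hba-x, Rpl31-ps12 and Actg2 passed in MTF2 NPC itself. Hba-x read 0.539, 1.24 and 1.95 TPM in untreated untagged NPC and 2.75, 1.74 and 1.62 TPM in untreated JARID2 NPC. Opposite calls in these lines comprised 61 genes that rose and 7 that fell with MTF2 loss; those among the named genes were Bmi1 (0.75 ± 0.13), Shh (1.68 ± 0.11), Sulf1 (0.58 ± 0.08), Pax6 (-1.31 ± 0.16), Col3a1 (1.68 ± 0.15), Twist1 (1.04 ± 0.17), Ccnd2 (0.85 ± 0.08), Eda2r (0.61 ± 0.10), Hspa5 (0.42 ± 0.06), Cyp51 (0.39 ± 0.07), Slc2a1 (-0.76 ± 0.07) and Cxcl12 (1.73 ± 0.15), with adjusted p from 3.42e-09 to 0.000698.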

How the results depend on the processing

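The count of genes called with MTF2 loss was 1340. It was 1250 and 1369 with pseudocounts of 0.1 and 1, 1105 with no filter, 1290 with a filter at 5 TPM, 1526 with median-of-ratios scaling and 1460 with voom on recovered reads (673 higher, 787 lower). Fits to the compared groups alone gave 601 for MTF2 loss, 120 beyond the untagged effect (230 in the fit to all NPC groups), 996 against JARID2 loss (1588) and 806 between the untreated lines (1443); the cause was not tested, and these fits have fewer libraries. With 1 library left out the counts ran from 788 to 1135, 126 to 257, 1134 to 1616 and 760 to 1441 in the same order, and from 5836 to 6933 against SUZ12 loss. Correlations of the deviations of same-numbered replicates in MTF2 NPC were small, at 0.0378, 0.00384 and 0.0192. Those of differently numbered replicates ran from -0.0343 to 0.0129. These values do not settle whether replicates pair. With the replicate number (title numbers for SUZ12) as a block the counts were 1698, 337, 1940, 1976 and 7568, and no named call was lost. Of 140 called named genes 91 kept call and direction under every alternative, and 49 lost the call in 1 or more: 33 in the fit to the compared groups, 38 with a library left out, 13 in voom and 3 under median-of-ratios scaling. No called gene reversed. Log2 changes of 6 uncalled genes did: Cryba1 (-0.15 without untreated replicate 1, range -0.15 to 0.78 with 1 library left out), Rpl10l (-0.01 without auxin replicate 2, -0.01 without untreated replicate 2, range -0.01 to 0.23 with 1 library left out), Dppa3 (0.00 with pseudocount 0.1, 0.00 without auxin replicate 2, 0.03 without auxin replicate 3, 0.12 without untreated replicate 1, 0.09 without untreated replicate 2, range -0.21 to 0.12 with 1 library left out), Hesx1 (0.49 without auxin replicate 2, 0.08 without untreated replicate 2, range -0.44 to 0.49 with 1 library left out), Phf19 (-0.05 without auxin replicate 1, range -0.05 to 0.18 with 1 library left out) and Aebp2 (0.01 without auxin replicate 3, range -0.12 to 0.01 with 1 library left out); the cause was not tested. Depth limits low genes, and many of the largest rises rest on few reads.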

Other observations

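Many germ line genes are held silent in body cells by PRC2 and DNA methylation. Of 27 tested 26 rose and 0 fell with SUZ12 loss (23.9% and 33.0% over all tested genes). With JARID2 loss 12 rose and 0 fell (9.28% and 15.7%). With MTF2 loss 2 rose and 0 fell, near the shares over all tested genes (5.03% and 3.11%). Stra8, which starts meiosis, rose from 3.98 to 5.20 TPM to 6.62 to 10.7 TPM, a call lost without auxin replicate 3 or untreated replicate 3, and Rhox6, a homeobox gene of germ cells and placenta, from 21.4 to 24.4 TPM to 26.4 to 41.9 TPM, a call lost without auxin replicate 2 or untreated replicates 2 or 3. With SUZ12 loss 0 of 23 cholesterol synthesis genes rose and 21 fell (23.9% and 33.0% over all tested genes). With MTF2 loss 2 rose and 1 fell (5.03% and 3.11% over all tested genes). The rises, Idi1 and Cyp51, enzymes of the pathway, numbered 0 without auxin replicates 1 or 3 or untreated replicate 3 and in a fit to the compared groups alone, and 1 without any other single library, under median-of-ratios scaling and in voom. The fall did not pass in a fit to the compared groups alone. Of 30 proliferation genes 3 rose and 0 fell. Ccnd2, a D cyclin, read 349, 334 and 332 TPM untreated and 453, 429 and 431 TPM with auxin (0.37 ± 0.06, adjusted p = 0.000362). Of 10 cell-cycle inhibitors 1 rose, Cdkn1c, a call lost without auxin replicate 2 or untreated replicate 1.

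Of 21 amino acid and unfolded protein stress genes 3 rose and 0 fell. Hspa5, an endoplasmic reticulum chaperone, rose from 641 to 648 TPM to 734 to 788 TPM and Atf3, a stress-induced factor, from 4.97 to 6.12 TPM to 10.5 to 12.8 TPM. Of 22 ERK and FGF targets 3 rose and 1 fell, with 1 rise without untreated replicates 1, 2 or 3. Dusp6, a phosphatase induced by ERK signalling, rose from 78.4 to 87.7 TPM to 100.4 to 108 TPM, and Fgfr3, a receptor of neural progenitors, fell from 102 to 108 TPM to 70.8 to 80.5 TPM. Of 6 tested targets of the aryl hydrocarbon receptor, a sensor of indoles, 0 rose and 0 fell in limma, where 4 had an unadjusted p under 0.05. Of 9 DNA methylation genes 2 rose, of 6 two-cell-like genes 1 and of 11 glial genes 1, with no falls. Without untreated replicate 2 these rises numbered 1, 0 and 1, and without untreated replicate 3 they numbered 1, 1 and 0. Without auxin replicates 1 or 3 the DNA methylation rises numbered 1.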
